A study of Mus musculus with 6 samples.

Results

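Of 8 long noncoding RNA genes chosen by symbol for their abundance in brain (Malat1, Neat1, Miat, Rmst, Snhg11, Pantr1, Gas5 and Snhg1), 1 gene, Snhg11, had a matching gene identifier and 5 matching transcript identifiers when the symbols were mapped through GENCODE M21. The other 7 genes are not analysed here, and every value below that concerns the chosen RNAs is a value of Snhg11. It is 1 of 36008 genes in the table of gene levels, and its 5 transcripts are part of the 118783 for which kallisto values were used. The chosen label calls Snhg11 a long noncoding RNA. RefSeq lists it as lncRNA as well, whereas GENCODE M21 gives the gene the type protein_coding, so the annotations differ on this point.

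The study asked which transcripts depend on PRMT9, an arginine methyltransferase that modifies the splicing factor SF3B2. Polyadenylated RNA was sequenced from the hippocampus of 3 WT mice and 3 Prmt9 KO mice, all female, of strain B6J and 2 weeks old, and the groups were same-sex littermates. In the KO mice, exon 5 of Prmt9 had been deleted in the germline with a CMV-Cre line, so every cell type of the tissue lacked the intact gene. In bulk tissue, fewer cells of a type and less RNA per cell cannot be told apart.

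Small nucleolar RNAs (snoRNAs) are cut out of the introns of longer host transcripts after splicing, and most of them guide chemical modification of ribosomal and spliceosomal RNA. In snoRNA host genes such as Snhg11 and Gas5, the spliced exons are a by-product of snoRNA release or have roles of their own, and isoforms with an early stop codon can be removed by nonsense-mediated decay. Snhg11 RNA is known as a transcript of neurons. Malat1 and Neat1, in contrast, stay in the nucleus, where Neat1 forms the core of paraspeckles and Malat1 gathers in nuclear speckles.

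Snhg11 (ENSMUSG00000044349) lies on the forward strand of chromosome 2 of GRCm38, from position 158375638 to 158386145. The longest transcript, ENSMUST00000109488, has 5 exons and 5864 bases, of which 261 in 3 exons are annotated as coding, and its last exon alone runs from 158380939 to 158386145. Between its exons 3 and 4 lies an intron of 3698 bases that holds 2 annotated snoRNAs, Gm25187 and Gm25129. ENSMUST00000149303 and ENSMUST00000138307, both annotated as nonsense_mediated_decay, include a further exon between exons 2 and 3 of the long transcript. ENSMUST00000137320 and ENSMUST00000148965 are annotated as retained_intron. The former reads through from exon 2 to position 158379062 and so carries the whole sequence of Gm25187, while the latter runs past exon 3 to position 158377206.

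**Figure D1:**
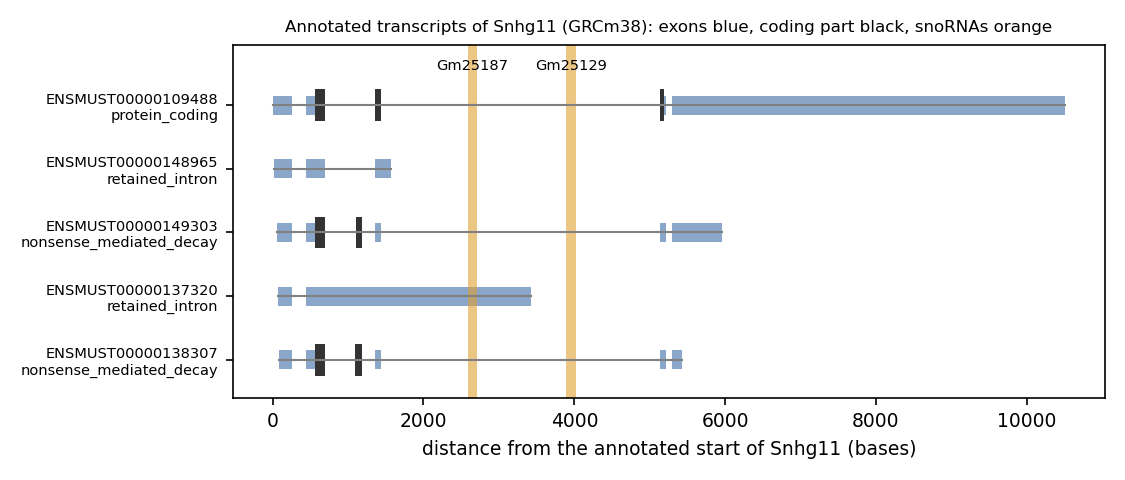
The 5 annotated transcripts of Snhg11, drawn by distance from the annotated start of the gene in bases, with exons in blue, annotated coding parts in black and the 2 snoRNAs as orange bands. Of the 5 transcripts, the retained_intron transcript ENSMUST00000137320 has an exon that covers the snoRNA Gm25187.

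The alternative exon is shown because its inclusion separates the nonsense_mediated_decay transcripts from the long transcript, and because it has a choice between 2 acceptor sites, SF3B2 being a subunit of the complex that binds the branch point ahead of an acceptor. The stretch at chr2:158376693-158376834 (GRCm38, forward strand, from the GENCODE M21 transcripts) holds 40 bases of intron, the exon in its longer form of 92 bases and 10 bases of the next intron. The capitals mark the 12 bases between the upstream acceptor, used by ENSMUST00000138307, and the downstream acceptor, used by ENSMUST00000149303, whose exon has 80 bases. In both forms the intron ends in AG, and the intron after the exon begins with GT.
alternative exon: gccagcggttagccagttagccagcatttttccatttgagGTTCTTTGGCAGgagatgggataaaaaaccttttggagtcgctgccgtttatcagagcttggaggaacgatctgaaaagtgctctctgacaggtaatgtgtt

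Both forms of the exon leave a remainder of 2 bases after division into codons. In ENSMUST00000149303 a TGA stop codon begins at position 158376819, inside the exon, and 163 bases lie between this stop codon and the last exon junction. The annotated reading frame has 67 codons there against 87 in the long transcript.

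The snoRNAs are shown because they are what the intron of this host gene carries, and because Gm25187 is the one that remains in a transcript with measured values. They lie at chr2:158378222-158378354 (Gm25187) and chr2:158379534-158379666 (Gm25129). Each has 133 bases, and 93 of 136 aligned positions are identical (68.4%). Capitals mark the final ACA of both, the letters of the box that H/ACA snoRNAs carry near their 3′ end.
Gm25187: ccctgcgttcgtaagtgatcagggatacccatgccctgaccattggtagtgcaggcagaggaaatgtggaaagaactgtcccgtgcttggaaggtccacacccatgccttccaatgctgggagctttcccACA
Gm25129: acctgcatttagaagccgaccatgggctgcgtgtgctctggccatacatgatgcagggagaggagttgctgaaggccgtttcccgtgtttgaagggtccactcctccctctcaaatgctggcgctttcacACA

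The libraries held between 194098391 and 286771677 estimated counts. WT replicate 1 and Prmt9 KO replicate 1 stood apart from the other 4 mice. On principal component 1, which took up 67.4% of the variance between libraries, they lay at 109.9 and 30.5, whereas the rest lay between -37.6 and -31.3. In WT replicate 1, 37.4% of transcripts had no count, against at most 24.8% elsewhere. Results of Snhg11 that rest on these mice are also given without them. Prmt9, the targeted gene, matched the labels, with 11.8 to 15.2 TPM (a level scaled for transcript length and library depth) in WT and 3.93 to 4.67 TPM in Prmt9 KO mice, a log2 fold change of -1.71 (edgeR's quasi-likelihood test, adjusted p = 0.0327).

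Snhg11 was among the most abundant RNAs measured in hippocampus, and its level in Prmt9 KO mice was not distinguishable from that in WT mice. On the TPM scale the WT mice had 311, 650 and 658 TPM and the Prmt9 KO mice had 502, 709 and 781 TPM (replicates 1, 2 and 3). In each genotype replicate 1 was the lowest mouse, and Prmt9 KO replicate 1 fell inside the WT range, so the genotypes overlapped, whereas 5.13% of 9982 genes with a mean of at least 10 TPM did not. By its mean TPM over the 6 mice Snhg11 ranked 199 among the 36008 genes, and its rank within single mice ran from 116 in Prmt9 KO replicate 3 to 494 in WT replicate 1.

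The mean was 540 ± 198 TPM (SD, n = 3) in WT and 664 ± 145 TPM (SD, n = 3) in Prmt9 KO mice, a ratio of 1.23 (exact permutation test, two-sided, p = 0.5, where 0.1 is the smallest p that 3 mice against 3 allow). In normalized counts (CPM) the WT mice had 1193, 1884 and 1903 and the Prmt9 KO mice had 1658, 2098 and 2285. The log2 fold change was 0.28 with a standard error of 0.22 (edgeR's quasi-likelihood test, unadjusted p = 0.258, Benjamini-Hochberg adjusted p = 0.9999 over 20315 genes). A call required both an adjusted p under 0.01 and a change of over 1.5-fold. Snhg11 was not called, and neither was any of the genes tested (percent called, 0.0). For 252 of the 20315 genes the unadjusted p was under 0.05, a smaller part than that limit gives with no difference at all. Prmt9, the deleted gene, was itself not called (edgeR's quasi-likelihood test, adjusted p = 0.0327). The lack of a call at these limits therefore does not show a lack of change. DESeq2 called 2 of 28228 genes (percent called, 0.00709), and Snhg11 was not among them.

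Between mice of the same replicate number, Snhg11 TPM was higher in the Prmt9 KO mouse by 1.61-fold, 1.09-fold and 1.19-fold, in 3 of 3 pairs. The numbers could not be shown to mark pairs, so this and the later comparisons by number are a description. Without both mice numbered 1, the mean of Prmt9 KO mice was 1.14 times that of WT and the genotypes did not overlap, as was then the case for 53.8% of those 9982 genes. The log2 fold change was then 0.22 with a standard error of 0.05 (edgeR, unadjusted p = 0.00650, adjusted p = 0.165), and Snhg11 was not called, as 1 of 20479 genes was (percent called, 0.00488). Without WT replicate 1 alone it was 0.10.

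**Figure D2:**
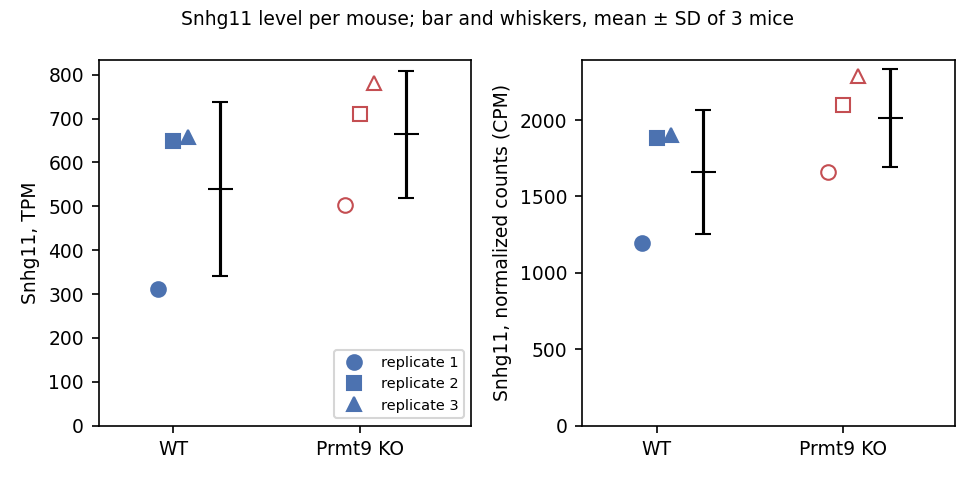
Snhg11 level per mouse as TPM (left) and as normalized counts in CPM (right), with WT in filled blue and Prmt9 KO in open red symbols, symbol shape for the replicate number, and mean ± SD of 3 mice beside the points. Replicate 1 is the lowest mouse of each genotype, at 311 TPM in WT and 502 TPM in Prmt9 KO.

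**Figure D3:**
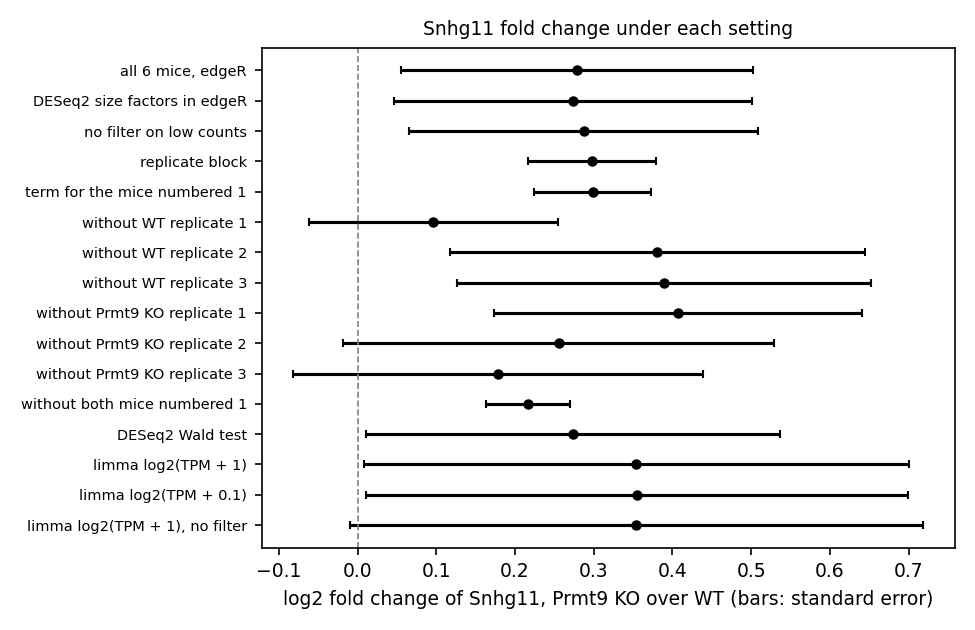
Log2 fold change of Snhg11 between Prmt9 KO and WT under each setting tried, with points for the estimate and bars for its standard error. All estimates lie above 0, from 0.10 without WT replicate 1 to 0.41 without Prmt9 KO replicate 1.

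Nearly all Snhg11 TPM was assigned to the long transcript, and ENSMUST00000149303, the more abundant of the nonsense_mediated_decay transcripts, came next. ENSMUST00000109488 had 294, 598 and 608 TPM in WT and 481, 666 and 740 TPM in Prmt9 KO mice. ENSMUST00000149303 followed with 11.1, 34.6 and 32.9 TPM in WT and 11.7, 26.4 and 25.7 TPM in Prmt9 KO mice. ENSMUST00000137320, the transcript that holds Gm25187, had between 5.15 and 12.8 TPM and was below ENSMUST00000149303 in each of the 6 mice.

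ENSMUST00000148965 (0.669 to 2.60 TPM) and ENSMUST00000138307 (at most 2.27 TPM, and 0 in WT replicate 1) were the lowest. ENSMUST00000148965 was the higher of the pair in 5 of 6 mice, Prmt9 KO replicate 1 being the exception, and their ranges overlapped. None of the 5 transcripts was called between genotypes, nor was any of the 75661 transcripts tested (edgeR, percent called, 0.0). Of these, 1216 had an unadjusted p under 0.05, again a smaller part than that limit gives with no difference. DESeq2 called 110 of 98948 transcripts (percent called, 0.111), none of them of Snhg11. The log2 fold changes by edgeR ran from -0.50 for ENSMUST00000148965 to 0.30 for ENSMUST00000109488, all with an adjusted p of 0.99999. Both ends moved when 1 mouse was left out, to between -0.90 (without Prmt9 KO replicate 2) and -0.21 (without Prmt9 KO replicate 1) for ENSMUST00000148965, and to 0.14 without WT replicate 1 for ENSMUST00000109488.

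As shares of the gene's TPM, the long transcript took between 92.04% and 94.6% in WT and between 93.9% and 95.7% in Prmt9 KO mice. The means were 93.0% ± 1.4 and 94.8% ± 0.90 (SD, n = 3 each), and the genotypes overlapped through WT replicate 1 (exact permutation test, two-sided, p = 0.2). In 3 of 3 same-numbered pairs the share was higher in the Prmt9 KO mouse, by 1.16, 1.88 and 2.40 percentage points. The shares of the transcripts sum to the whole and so are not independent of each other. The remaining shares are those of the 4 minor transcripts, which fell below the limit of 10% set for naming a transcript and were chosen after their values were seen.

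The share of ENSMUST00000149303 was 3.56%, 5.33% and 5.01% in WT and 2.33%, 3.72% and 3.29% in Prmt9 KO mice. Replicate 1 was the lowest in each genotype here too, and WT replicate 1 fell below Prmt9 KO replicate 2. The means were 4.63% ± 0.94 and 3.11% ± 0.71 (SD, n = 3 each, exact permutation test, two-sided, p = 0.2). Within the pairs of the same number the Prmt9 KO share was 0.655, 0.698 and 0.657 times the WT share. The share was thus lower in the Prmt9 KO mouse in 3 of 3 pairs, the mice numbered 1 included. How many of all transcript shares went 1 way in 3 of 3 pairs was not computed. Without WT replicate 1 the genotypes did not overlap, as was so for 28.8% of 46184 transcript shares between 1% and 99% in genes of at least 10 TPM. The same held for 42.6% of these shares without both mice numbered 1 and for 9.27% with all 6 mice.

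The inclusion of the alternative exon, taken as the TPM of the 2 transcripts with it over the TPM of these and of the 2 transcripts that join exon 2 to exon 3 directly, was 3.62%, 5.79% and 5.38% in WT mice. In Prmt9 KO mice it was 2.56%, 4.05% and 3.47%. The means were 4.93% ± 1.15 and 3.36% ± 0.76 (SD, n = 3 each) and differed by -1.57 percentage points (two-sided exact permutation test, p = 0.2). Computed from estimated counts, the same measure went from 1.03% ± 0.24 to 0.687% ± 0.162, where values are not scaled for transcript length. Without WT replicate 1 the genotypes no longer overlapped (exact permutation test, two-sided, p = 0.2, the smallest that 2 mice against 3 allow). Between mice of the same number, inclusion in the Prmt9 KO mouse was 0.707, 0.701 and 0.644 times that in the WT mouse. Most TPM with the exon came from ENSMUST00000149303, so inclusion largely repeats the share of that transcript and is not a separate result. This measure was chosen after its values were seen, and how often such a measure stood apart across genes was not computed.

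Upstream acceptor use, the part of exon-including TPM that came from ENSMUST00000138307, was 0, 6.16% and 5.10% in WT and 7.30%, 6.55% and 3.60% in Prmt9 KO mice, with wide overlap (exact permutation test, two-sided, p = 0.5). This value rests on 74.5 to 186 estimated counts in the 5 mice that had any, against 218086 to 590491 for the long transcript. No difference in acceptor choice could be told from the spread between mice, which includes the 0 of WT replicate 1.

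The retained_intron transcripts together made up 1.87%, 2.28% and 2.33% of Snhg11 TPM in WT and 1.75%, 2.09% and 1.80% in Prmt9 KO mice (exact permutation test, two-sided, p = 0.2). The genotypes overlapped, while within pairs of the same number the Prmt9 KO share was lower in 3 of 3, with differences of -0.11, -0.18 and -0.53 percentage points. The transcript with Gm25187, ENSMUST00000137320, contributed a mean of 1.82% ± 0.15 and 1.68% ± 0.10 (SD, n = 3 each).

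**Figure D4:**
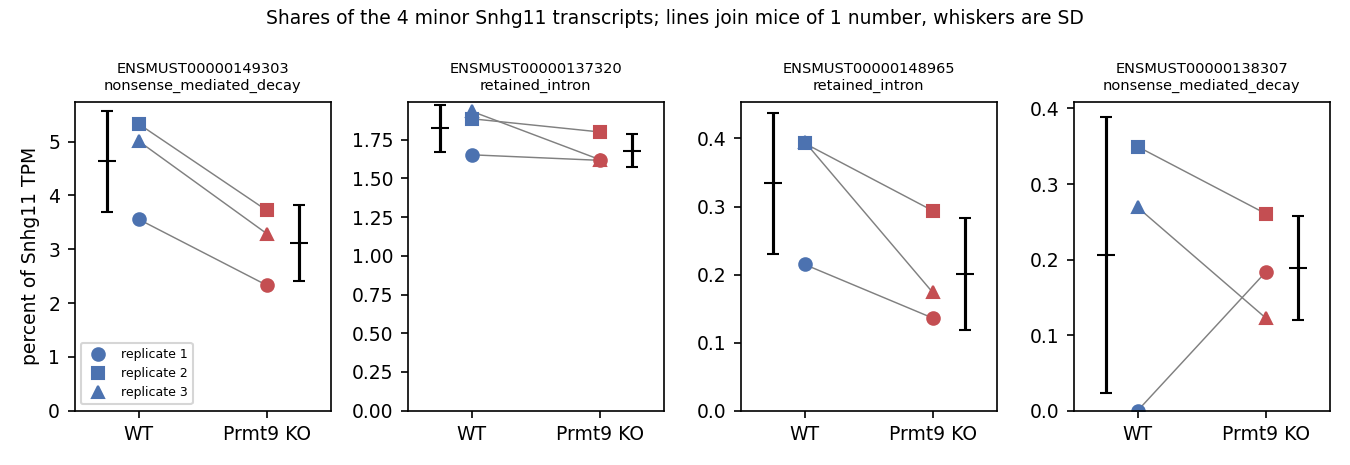
Percent of Snhg11 TPM assigned to each of the 4 minor transcripts, per mouse, with WT in blue, Prmt9 KO in red, lines between mice of the same replicate number and mean ± SD of 3 mice beside the points. The shares of ENSMUST00000149303, ENSMUST00000137320 and ENSMUST00000148965 are lower in the Prmt9 KO mouse of each pair, that of ENSMUST00000138307 is not, and the genotypes overlap in all 4.

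Relative use of the Snhg11 transcripts was not called as different in edgeR's diffSpliceDGE (Simes test, unadjusted p = 0.926, adjusted p = 1), where 23 of 13560 genes were called (percent called, 0.17). The result turned on the mice numbered 1. Without both of them, Snhg11 was called with an adjusted p of 0.00603 (edgeR's diffSpliceDGE, 2 mice against 2), among 249 of 13666 genes (percent called, 1.82). The call names no transcript, and in these 4 mice the share of every Snhg11 transcript stood apart between genotypes. Of all transcript shares between 1% and 99% in genes of at least 10 TPM, 42.6% did so. The share of the long transcript averaged 92.2% in WT and 94.4% in Prmt9 KO, and that of ENSMUST00000149303 averaged 5.17% and 3.50%. The log2 fold change of ENSMUST00000149303 was -0.36 with a standard error of 0.06 (edgeR, adjusted p = 0.334). With all 6 mice that fold change was -0.32 with a standard error of 0.39 (edgeR, unadjusted p = 0.450), and on leaving out single mice it ran from -0.61 without WT replicate 1 to -0.07 without Prmt9 KO replicate 1. With all 6 mice and replicate number as a block, the unadjusted p of usage was 0.453 and the adjusted p was 1 (percent called, 0.0959).

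Other measures moved with the low Snhg11 of the mice numbered 1. Snhg11 TPM in WT replicate 1 was 0.476 times the mean of the other WT mice, and in Prmt9 KO replicate 1 it was 0.674 times that of the other KO mice. The summed TPM of 8 neuronal markers was 2502 in WT replicate 1 and 3127 in Prmt9 KO replicate 1, against 3184 to 3534 in the other mice. Among them, and picked after their values were seen, Snap25, a protein of synaptic vesicle fusion, had 517 and 781 TPM against 1132 to 1269. Tubb3, a neuronal tubulin, went the other way, with 704 and 886 TPM against 278 to 325.

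The 8 oligodendrocyte lineage markers summed to 2216 and 1221 TPM in the mice numbered 1 and to at least 7625 TPM in the others. The 6 choroid plexus and ependyma markers, led by Ttr, summed to 7290 TPM in WT replicate 1 and to between 626 and 3355 TPM in the other 5 mice. The sum of 6 astrocyte markers was 983 and 1114 TPM against at least 1464. Summed, the 6 microglia markers were lowest in the mice numbered 1 as well, at 224 and 188 TPM against 243 to 259 TPM. Cx3cr1, Csf1r and Tmem119 were lowest in both mice numbered 1, whereas Aif1 was highest in both. P2ry12 and C1qa were highest of all in WT replicate 1 (44.9 and 95.1 TPM) and lowest of all in Prmt9 KO replicate 1 (32.8 and 62.1 TPM). The sum of the 6 endothelial and mural markers was highest in the mice numbered 1, at 203 and 208 TPM against 133 to 158 TPM. Cldn5 led it (107 and 89.2 TPM against at most 45.2 TPM), Flt1 was lowest there, and the rest overlapped. The sum of the 4 thalamus markers was also highest there, at 153 and 163 TPM against 116 to 128 TPM. Calb2 led it (117 and 128 TPM against at most 75.2 TPM), while Tcf7l2 and Prkcd were lowest there and Lef1 overlapped. All 44 of these markers were above 0 in each mouse, and their part in the Snhg11 values was not tested. None of them was called between genotypes, nor was any of the 20315 genes tested. The share of all TPM in retained_intron transcripts was 5.66% in WT replicate 1, 6.40% in Prmt9 KO replicate 1 and between 7.25% and 7.62% elsewhere.

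The genes whose log2(TPM + 1) followed that of Snhg11 most closely over the 6 mice were Pcid2 (Pearson r = 0.9997), which acts in nuclear mRNA export, and Adam17 (r = 0.999), a membrane protease. Pcid2 had 17.3, 25.7 and 26.2 TPM in WT and 22.4, 27.1 and 28.7 TPM in Prmt9 KO mice. Of 9981 genes with a mean of at least 10 TPM, 34.6% had an r above 0.9 with Snhg11, and the points share the 2 mice that stood apart.

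The nearest protein-coding genes on chromosome 2 were followed next. Lbp, which encodes a lipopolysaccharide-binding protein and ends 42785 bases before Snhg11, ranged from 6.28 to 16.6 TPM and was highest in WT replicate 1, where Snhg11 was lowest. Ralgapb, a subunit of a Ral GTPase-activating complex, begins 23702 bases after Snhg11 and had 20.5, 35.5 and 35.1 TPM in WT and 26.3, 33.9 and 33.7 TPM in Prmt9 KO mice, so that replicate 1 was the lowest mouse of each genotype, as for Snhg11. Their log2 fold changes were -0.39 (SE 0.57) and 0.02 (SE 0.16), and neither was called (edgeR, adjusted p = 0.9999 for both).

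Genes that work with the RNAs on the chosen list were followed as well. Of 18 paraspeckle protein genes, edgeR called 0, and for 0 was the unadjusted p under 0.05. Log2 fold changes lay between -0.10 (Rbm14) and 0.14 (Tardbp, an RNA-binding protein known from neurodegeneration), 9 above 0 and 9 below it, and Fam98a had the smallest unadjusted p, 0.294. Of 14 genes for nuclear speckle and related RNA-binding proteins, edgeR likewise called 0 and for 0 was the unadjusted p under 0.05. Log2 fold changes ran from -0.19 for Srsf3, a splicing regulator, to 0.12, with a median of -0.04. Khsrp, which binds AU-rich RNA, had the smallest unadjusted p, 0.145, at a log2 fold change of -0.18. Over all 20315 genes tested, the median was -0.01, edgeR called 0, and 252 had an unadjusted p under 0.05. Counts of 0 in lists this short therefore say little about them. A list of 18 other snoRNA host genes and a list of 22 other brain noncoding genes are not analysed here, since no identifier matched.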

How the data were processed

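Deposited RNA-seq values of 6 hippocampus libraries, 3 per genotype, were analysed. The authors quantified paired-end reads of 100 bases with kallisto (version 0.46.0 per the submitters' processing notes, an older one per the study's methods). They deposited an estimated count and a TPM per transcript and mouse, and a table of TPM summed per gene with tximport. The deposited estimated counts are not normalized, and reads shared by transcripts were split between them. The deposited TPM is scaled for length and depth within a mouse. Such assignment error was not modelled, so minor transcripts carry more error than the tests include.

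Transcripts were matched to GENCODE M21 (GRCm38) by identifier, 116622 of 118783. Counts were summed per gene, rounded, filtered with filterByExpr, normalized with TMM and compared in R 4.3.3 with edgeR 4.0.16, with DESeq2 1.42.0 and limma 3.58.1 as alternatives and Benjamini-Hochberg adjustment. Transcript usage was tested with diffSpliceDGE. Single values were compared with exact permutation tests in SciPy 1.17.1. The edgeR tests were tested on simulated data. For the result given here, each gene or transcript had the median spread of these 6 mice, and no mouse stood apart. The gene test found large changes but few modest ones, and the transcript and usage tests found hardly any. The lack of a call thus says little there. How often a change of Snhg11 would be found was not computed. DESeq2 and limma were not tested in this way. Totals of 194098391 to 286771677 counts per mouse make counting error small for the gene. Members, lists and alternatives were chosen with earlier results of these data known. Named were the members, Prmt9, transcripts with at least 10% of a gene's TPM, the nearest protein-coding genes, at most 4 genes of smallest p per list and the 2 genes most alike over the mice. The deviations of same-numbered mice from their group means correlated at 0.553, 0.415 and 0.383 across genes. These were above the limit of 0.1 for treating the numbers as pairs, but the unlike-numbered WT 2 and KO 3 gave 0.417, and WT 3 and KO 2 gave 0.394. Deviations from a group mean cancel out within a genotype, so the outlying mice numbered 1 alone move the others together. The limit therefore cannot show that mice numbered 2 or 3 were pairs, and comparisons by replicate number are a description. The p-values set a difference between the genotypes against the spread between these mice and do not measure that spread.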

Additional observations from a re-analysis of the deposited data

How the results depend on the processing

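The log2 fold change of Snhg11 was positive under all 15 alternatives, between 0.10 and 0.41, and passed the limits under none (adjusted p from 0.165 to 1). With replicate number as a block, it was 0.30 (SE 0.08, edgeR, unadjusted p = 0.0132, adjusted p = 0.790), and pairing changed no call for Snhg11. In that fit 1168 of 20315 genes had an unadjusted p under 0.05. The count of called members, 0 for gene level and for transcripts, was 0 in each alternative. For usage it was 0 in 11 alternatives and 1 without both mice numbered 1 (adjusted p = 0.00603). Whether the genotypes stood apart in gene TPM (1 if so, 0 if not) ranged from 0 to 1 on leaving out single mice and was 1 without Prmt9 KO replicate 1 and without both mice numbered 1. The share of the long transcript gave 0 to 1, with 1 without WT replicate 1, without Prmt9 KO replicate 2 and without both mice numbered 1. Inclusion of the alternative exon, whose alternatives were chosen after seeing the data, did the same. Without WT replicate 1, 28.8% of transcript shares in genes of at least 10 TPM stood apart. Without both mice numbered 1, 42.6% of these shares and 53.8% of such genes by TPM did. How many did so without a Prmt9 KO mouse alone was not computed. The fold change of ENSMUST00000137320 turned from 0.14 to -0.085 without WT replicate 1 and was at most 0.28 on leaving out single mice. That of ENSMUST00000138307, -0.04 with all mice, was 0.79 with the replicate block, 0.79 with a term for the mice numbered 1, and between -0.62 and 0.55 on leaving out single mice, positive without WT replicate 2 (0.55), WT replicate 3 (0.20), Prmt9 KO replicate 1 (0.07) or Prmt9 KO replicate 3 (0.14). The cause of these turns was not tested. The other minor transcripts, ENSMUST00000148965 and ENSMUST00000149303, kept a negative sign in all 12 alternatives. ENSMUST00000138307 had at most 186 counts per mouse and 0 in WT replicate 1, without which its standard error was 0.36 in place of 1.36.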
